A study of Mus musculus with 24 samples.

Results

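Collagens are the structural proteins of the extracellular matrix, and each is a triple helix of 3 chains encoded by collagen chain genes. The 38 genes described here are the target IDs (transcript targets on the array, each read by 1 or more probes) whose name has the form COL, a type number, A and a chain number. They were 38 of the 31483 target IDs, and all 38 matched a gene symbol of the RefSeq mouse annotation. RefSeq lists 44 protein-coding genes named in this way; of the other 6, Col20a1, Col22a1, Col26a1, Col6a4 and Col6a6 carried older names on the array that the naming rule did not take, and Col6a5 was not analysed here. Of the members 11 were fibrillar, 6 belonged to type IV of basement membranes and 21 to other types. On the array 14 were read by 1 probe and 24 by 2 to 5 probes.

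Transcript levels were measured on Illumina bead arrays in C57BL/6 JAX mice. The 8 groups, of 3 arrays each, were Cirh1a heterozygotes and wild types, as whole embryos (embryonic days E8.5 and E9.5) and as livers (E11.5 and E12.5). In the heterozygotes 1 copy of Cirh1a holds a β-Geo gene trap; the gene encodes the ribosome assembly factor cirhin. The trap is named for every sample, wild type included, and the genotype comes from the sample titles; embryos of a stage were littermates genotyped from yolk sac. Nothing in the labels tells single embryos from pools, so the spread between arrays may be technical in part. Tissue and age differ together between embryo and liver, and E8.5 and E12.5 arrays alone shared 1 normalization.

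The fibrillar chains form the banded fibrils of connective tissue, with type II in cartilage and notochord and types I, III and V in mesenchyme. Type IV chains build the sheet-like network of basement membranes together with laminins, nidogens and perlecan. The other types include the beaded filaments of type VI, fibril-associated chains such as types IX, XII, XIV and XVI, membrane-spanning chains such as types XIII, XVII and XXIII, and the basement membrane zone proteins of types XV and XVIII. In fetal liver many collagens come chiefly from stellate and other mesenchymal cells, mesothelium and endothelium. The cell source of each chain was not measured here.

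The Cirh1a transcript followed the labels where it had a value. At E8.5 it had a log2 value of 9.90, 9.85 and 9.90 in heterozygotes and 10.64, 10.89 and 10.97 in wild type. It was 10.73 to 10.98 in heterozygotes and 11.74 to 11.78 in wild type at E9.5, and 9.26 to 9.63 in heterozygotes and 10.32 to 10.46 in wild type at E12.5. Its E11.5 value was not analysed here, so the E11.5 labels were not checked against it. Pearson correlations between arrays of a stage were 0.981 to 0.997. The liver arrays carried liver transcripts, with the hepatoblast gene Afp at the 98.5th signal percentile at E11.5 and the 99.0th at E12.5 and 6 of 7 hepatoblast markers above the median at E11.5, albumin (49.6th percentile) being the exception. These markers were not confined to liver. Afp lay at the 91.8th percentile at E8.5 and the 83.6th at E9.5, and 6 of 6 hepatoblast markers were above the median at E8.5. The mesoderm gene T lay at the 89.6th and 83.6th percentile in embryos and at the 42.7th and 36.8th in the livers. At E8.5 Xist (8.62 to 10.37 in the 3 heterozygotes and 1.99 to 2.27 in the 3 wild types) and the Y-linked Eif2s3y (1.75 to 2.36 in heterozygotes and 9.06 to 9.52 in wild types) coincided with genotype, so genotype and sex cannot be told apart there. All 6 E9.5 arrays carried both signals, so none of them read as tissue of 1 sex. Xist was at 9.34 to 10.14 in E9.5 heterozygotes and 10.12 to 11.13 in wild types. Eif2s3y was at 9.35 to 9.68 in E9.5 heterozygotes and 8.65 to 9.32 in wild types. Whether these arrays were pools of embryos was not tested.

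Level is given as a signal percentile, the share of the 25206 target IDs with values on all 24 arrays that read below the gene on the same array. It ranks array signal and is not a measure of transcript number, so it is used to follow 1 gene over the stages. The median over the 38 genes was 57.6, 60.7, 54.0 and 56.7 in stage order, a little above the middle of the array. Above the 80th percentile were 9, 8, 8 and 8 genes at the 4 stages. Col18a1, Col4a1, Col4a2 and Col5a1 were there at all 4 stages, and Col10a1, Col28a1, Col4a3, Col4a4 and Col5a3 were below the median at all 4. The class medians lay closer together in liver than in embryos: type IV stood at 74.5, 73.7, 59.9 and 58.9 in stage order, the fibrillar chains at 58.7, 66.2, 63.7 and 59.0, and the other types at 55.7, 57.2, 52.0 and 50.8.

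**Figure D1:**
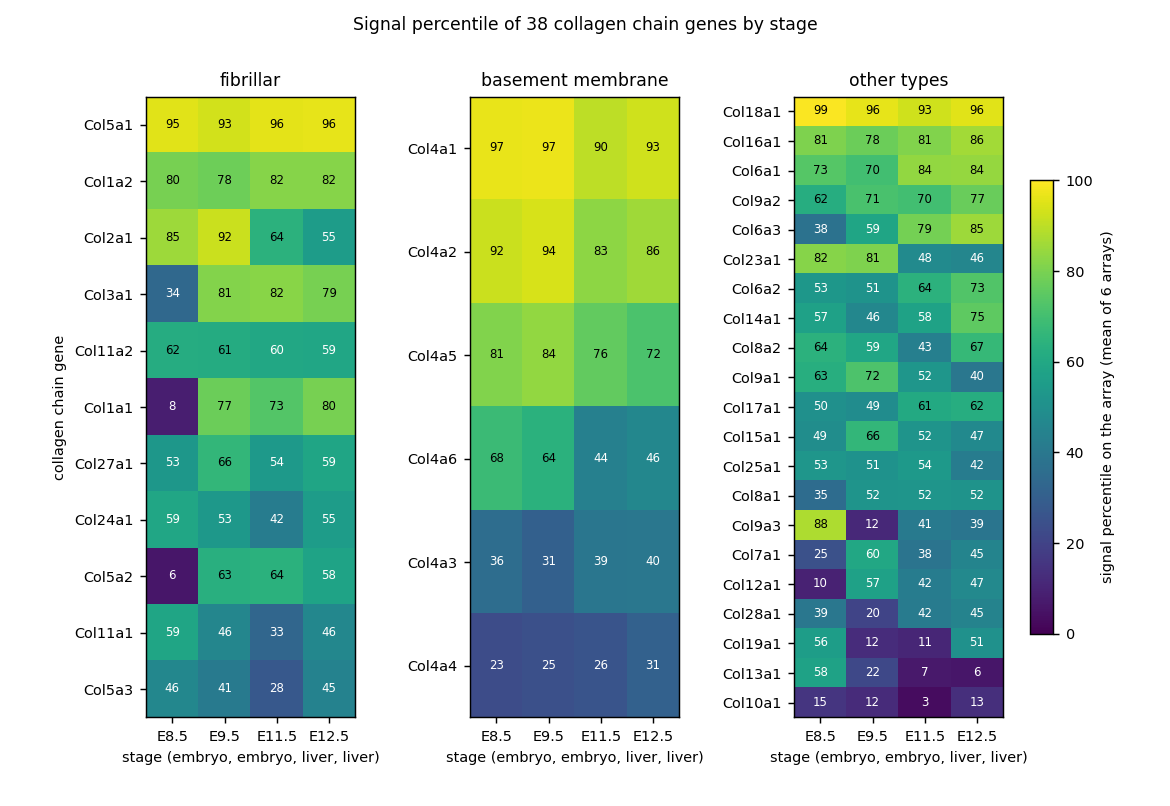
Signal percentile (0 to 100, colour and printed number, mean of 6 arrays with both genotypes) of each of the 38 collagen chain genes (rows, by class) at E8.5 and E9.5 (whole embryo) and E11.5 and E12.5 (liver). Col18a1, Col5a1, Col4a1 and Col4a2 stay at the top throughout, Col2a1 and Col23a1 are lower in liver, the 3 type VI chains are higher in liver, and Col1a1, Col3a1 and Col5a2 are low at E8.5 alone.

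Type IV genes lie in mouse as head-to-head pairs. Col4a1 and Col4a2, the chains of the ubiquitous basement membrane network, were high at all 4 stages. Their promoters are printed because the 2 windows overlap and because both genes were lower in liver than in embryos. Each window runs from 250 bases before to 50 bases after the annotated start, 5′ to 3′ on the gene's own strand, from RefSeq on GRCm38.p6. Capitals mark the GC box GGGCGG and the CCAAT box, on either strand.

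Col4a1, chr8:11312777-11313076, minus strand: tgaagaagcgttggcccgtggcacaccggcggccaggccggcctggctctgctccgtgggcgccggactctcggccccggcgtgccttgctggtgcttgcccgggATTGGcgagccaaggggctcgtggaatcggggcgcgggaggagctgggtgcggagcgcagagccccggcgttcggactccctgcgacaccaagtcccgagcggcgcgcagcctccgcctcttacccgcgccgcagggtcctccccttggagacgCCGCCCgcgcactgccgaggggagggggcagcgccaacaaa

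Col4a2, chr8:11312555-11312854, plus strand: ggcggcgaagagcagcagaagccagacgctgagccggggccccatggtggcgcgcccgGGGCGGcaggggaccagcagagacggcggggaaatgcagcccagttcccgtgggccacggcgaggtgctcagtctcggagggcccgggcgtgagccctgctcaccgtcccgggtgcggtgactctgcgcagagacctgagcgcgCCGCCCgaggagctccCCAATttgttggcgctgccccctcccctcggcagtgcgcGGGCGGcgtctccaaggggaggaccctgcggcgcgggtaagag

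The annotated starts lie 21 bases apart on opposite strands, and 78 bases of one window are the reverse complement of the other, with 1 GC box inside the shared stretch. The Col4a1 window is 74% G and C with 37 CG dinucleotides, and the Col4a2 window 73.7% with 33. The Col4a6 and Col4a5 starts lie 1343 bases apart on the X chromosome, and their windows are shown for contrast because they share no base.

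Col4a6, chrX:141474027-141474326, minus strand: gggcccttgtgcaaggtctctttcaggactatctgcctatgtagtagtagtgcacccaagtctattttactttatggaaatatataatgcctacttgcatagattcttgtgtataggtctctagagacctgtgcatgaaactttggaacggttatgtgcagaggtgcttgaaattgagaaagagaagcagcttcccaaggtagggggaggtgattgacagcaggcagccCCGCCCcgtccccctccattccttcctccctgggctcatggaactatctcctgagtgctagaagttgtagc

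Col4a5, chrX:141475169-141475468, plus strand: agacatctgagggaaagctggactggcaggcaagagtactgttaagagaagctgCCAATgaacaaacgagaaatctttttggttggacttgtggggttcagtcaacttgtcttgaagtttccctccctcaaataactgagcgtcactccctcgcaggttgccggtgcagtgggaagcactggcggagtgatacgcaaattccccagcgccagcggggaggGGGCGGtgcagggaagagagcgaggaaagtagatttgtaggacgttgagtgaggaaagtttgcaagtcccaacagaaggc

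These windows are 48.3% G and C with 3 CG dinucleotides for Col4a6, and 52.7% with 11 for Col4a5. Promoter windows were found for 31 of the 38 genes, 34 windows in all. A GC box occurred in 20 of the 34 (58.8%) against 35.7% of all 32851 windows, a CCAAT box in 12 (35.3%) against 37.4%, and the TATA box TATAAA in 5 (14.7%) against 13.6%, each searched on both strands. The median G and C content was 59.8% in the collagen windows and 52.7% in all windows. A match describes these letters and is not a measured binding site.

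Col4a1 had a signal percentile of 96.2 at the lowest, 96.9 at the median and 97.7 at the highest over the 6 arrays of E8.5, and of 96.8, 97.1 and 97.4 over those of E9.5. In liver it had 88.5, 89.8 and 92.2 at E11.5 and 91.4, 92.6 and 93.6 at E12.5. The embryo arrays thus all ranked it above the liver arrays. Col4a2 did the same, with mean percentiles of 92.2, 94.0, 83.0 and 85.8 in stage order. Col4a5 averaged 81.0, 83.7, 76.1 and 71.5, and Col4a6 68.0, 63.7, 43.7 and 46.2. Col4a3 and Col4a4, the chains found with Col4a5 in the mature kidney filter, had stage means of 30.5 to 39.8 and 23.1 to 31.1, below the median, although single liver arrays put Col4a3 as high as 53.8 at E11.5 and 54.5 at E12.5.

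E12.5 liver was tested against E8.5 whole embryo, the only pair of stages normalized together. All 4 tested type IV chains were lower in liver. Col4a1 had log2 values of 9.39, 9.73 and 10.02 (lowest, median and highest of 6 arrays) in E12.5 liver and 10.93, 11.25 and 11.64 in E8.5 embryos, a fall of 1.51 (SE 0.152, adjusted p = 2.992e-06 by limma with Benjamini-Hochberg adjustment). The groups did not overlap. Col4a2 had 7.79, 8.13 and 8.41 in liver and 9.26, 9.68 and 10.05 in embryos, a fall of 1.52 (SE 0.159, adjusted p = 4.149e-06). Col4a5 fell by 2.00 (SE 0.216) and Col4a6 by 1.82 (SE 0.215). Whether neighbours differed from each other was not tested.

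Col18a1 (type XVIII), whose C-terminal part is the vessel inhibitor endostatin, joined them. It had log2 values of 10.50, 10.70 and 10.76 in E12.5 liver and 13.28, 13.41 and 13.73 in E8.5 embryos, a fall of 2.81 (SE 0.0994, adjusted p = 3.721e-10). Its signal percentile still averaged 95.5 in E12.5 liver. Among the other basement membrane genes, 10 of 12 tested were lower in liver and 0 higher. The laminin chains Lama1 (-3.03, SE 0.245) and Lamb1 (-3.06, SE 0.234), the heparan sulfate proteoglycan perlecan (Hspg2, -1.35, SE 0.309) and the matrix glycoprotein Sparc (-1.42, SE 0.147) were among the 10. Nid1, which links laminin to type IV collagen, had 0.18 (SE 0.209, adjusted p = 0.442).

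In all, 10 of 26 tested collagen genes were higher in E12.5 liver, against 30.6% of all 12603 tested target IDs, and 10 of 26 were lower, against 46.8%. The share of members called, 76.9%, was near the 77.3% of the whole table. The median difference was 0.07 for the members and -0.27 for all tested target IDs. By class, type IV had 4 of 4 lower, the fibrillar chains 3 of 9 higher and 2 lower, and the other types 7 of 13 higher and 4 lower. The 6 tested members not called were Col5a1, Col27a1, Col8a2, Col11a2, Col19a1 and Col24a1, with differences from -0.40 to 0.39. The other 12 members lay below the filter in this pair. In bulk tissue, fewer cells of a type and less RNA per cell cannot be told apart.

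**Figure D2:**
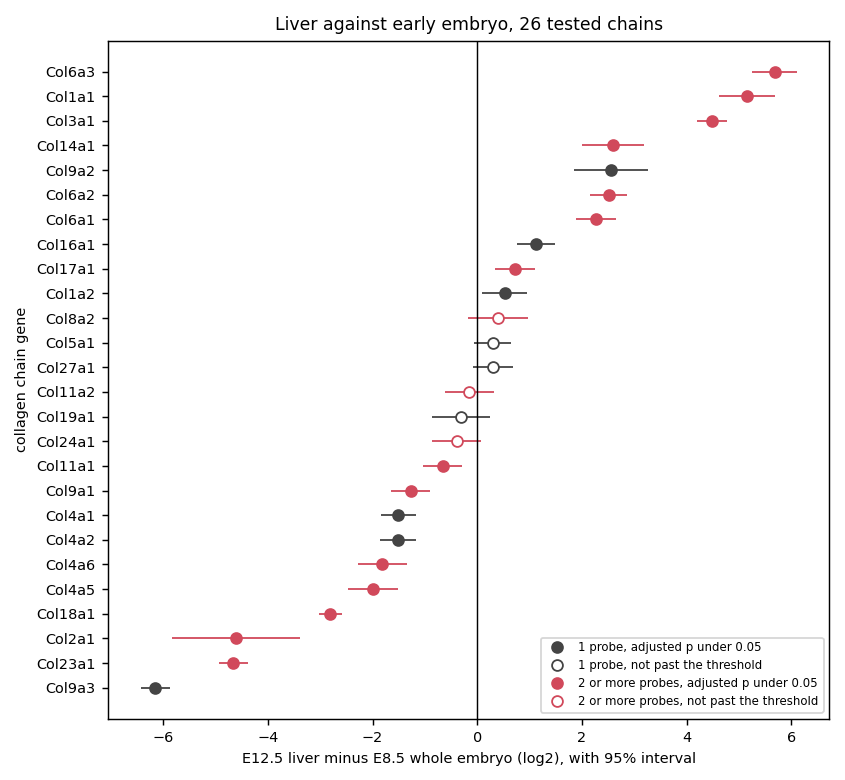
Difference of E12.5 liver minus E8.5 whole embryo (log2, horizontal axis, n = 6 arrays each, with 95% interval) for the 26 tested collagen chain genes, by number of probes and by whether the adjusted p was under 0.05. Col6a3 is at the top with 5.68, Col9a3 at the bottom with -6.16, and the 4 type IV chains lie between -1.51 and -2.00.

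Of the cartilage chains tested, Col2a1, Col9a1, Col9a3 and Col11a1 were lower in liver, Col9a2 was higher, and Col11a2 and Col27a1 did not pass. Col2a1, the type II chain, had mean percentiles of 85.4, 92.1, 64.1 and 55.3 in stage order. Its log2 values were 2.45, 2.92, 3.58, 2.53, 2.67 and 6.22 in E12.5 livers (heterozygotes, then wild types) and 7.83 to 8.35 in E8.5 embryos, a fall of 4.61 (SE 0.553, adjusted p = 1.351e-05). The last liver array, wild-type replicate 3, stood apart. The same array had the cartilage matrix gene Matn4 at 5.59, against 2.03 to 3.08 in the other 5. Its mean over the chondrogenic markers was 4.76, against 3.48 to 4.04, and Sox9, the cartilage transcription factor, was at 7.35 against 5.95 to 7.12; their part in the result was not tested.

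Col9a1, a chain of the cartilage type IX heterotrimer, had percentiles of 62.7, 71.9, 52.5 and 39.8 in stage order and fell by 1.27 (SE 0.170). Its neighbour on chromosome 1, Col19a1, had -0.32 (SE 0.250, adjusted p = 0.264). Col11a1, which copolymerizes with type II, fell by 0.66 (SE 0.170, adjusted p = 0.00407), and Col11a2 had -0.15 (SE 0.208, adjusted p = 0.524). The second type IX chain went the other way. Col9a2 had 5.74, 6.32 and 6.82 (lowest, median, highest) in E12.5 liver and 2.80, 3.796 and 4.65 in E8.5 embryos, a rise of 2.56 (SE 0.319, adjusted p = 1.853e-05). Its percentiles of 71.4 at E9.5 and 69.9 at E11.5 differ by less than its range at E11.5.

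The third type IX chain, Col9a3, had the largest fall of any tested member, 6.16 (SE 0.126, adjusted p = 4.741e-12), with 2.14, 2.37 and 2.57 in E12.5 liver and 8.10, 8.44 and 9.05 in E8.5 embryos. Its percentile was 87.7 at E8.5 and 11.6, 41.3 and 38.9 at the later stages, so its high reading was at E8.5 alone. Of the 5038 target IDs above the 80th percentile at E8.5, 26 (0.516%) were below the median at E9.5, and Col9a3 was the 1 of 9 such collagen genes. The E9.5 value does not go with those of Col9a1 and Col9a2, and the cause was not tested.

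The membrane-spanning chain Col23a1 was also lower in liver. It had percentiles of 81.7, 80.8, 47.9 and 46.1 in stage order, and its liver mean lay 34.3 points below its embryo mean. It fell by 4.66 (SE 0.123), with 2.34, 2.59 and 2.77 in E12.5 liver and 6.996, 7.18 and 7.67 in E8.5 embryos. Col13a1, also membrane-spanning, was above the median at E8.5 alone, with 57.8, 21.8, 6.9 and 6.0, and was not tested in this pair because its mean lay below the filter. Col17a1, the hemidesmosomal chain, had 0.72 in the opposite direction (SE 0.174, adjusted p = 0.00279).

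Type VI collagen, the beaded filament of connective tissue, was higher in liver for each of its 3 chains among the members. Col6a1 had 7.27, 7.77 and 8.07 in E12.5 liver and 4.89, 5.55 and 5.78 in E8.5 embryos, a rise of 2.27 (SE 0.171, adjusted p = 2.385e-07). Its neighbour on chromosome 10, Col6a2, had 5.15, 5.38 and 5.78 in liver and 2.28, 3.03 and 3.16 in embryos, a rise of 2.51 (SE 0.163, adjusted p = 6.376e-08). Neither pair of groups overlapped. Col6a3, on chromosome 1, had 7.32, 8.19 and 8.44 in liver and 2.03, 2.33 and 2.56 in embryos, a rise of 5.68 (SE 0.191, adjusted p = 2.452e-10). It was below the median at E8.5 alone, with a mean percentile of 37.6 there and 58.7 at E9.5, so the size of this rise rests in part on the E8.5 reading.

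The stages with their own normalization, read as percentiles, ran the same way. Col6a1 averaged 73.5, 69.6, 84.0 and 84.2, Col6a2 52.9, 51.4, 64.2 and 73.0, and Col6a3 37.6, 58.7, 79.2 and 85.4. In both livers each chain was at least 10 points above E9.5. This held for 7 members in all: the 3 type VI chains, Col14a1, Col17a1, Col28a1 and Col9a3. At least 10 points below E9.5 in both livers were 8 members: Col12a1, Col13a1, Col15a1, Col23a1, Col2a1, Col4a6, Col7a1 and Col9a1.

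Col14a1, a fibril-associated chain, had 5.31, 5.79 and 6.42 in E12.5 liver and 2.59, 3.09 and 4.09 in E8.5 embryos, a rise of 2.60 (SE 0.266, adjusted p = 3.475e-06). Col16a1, of the same family, rose by 1.12 (SE 0.162, adjusted p = 6.534e-05). It read at 8.15 ± 0.37 in E12.5 liver and 7.03 ± 0.16 in E8.5 embryos (SD, n = 6 each). Col5a1, the type V chain that starts fibrils, had 10.91 ± 0.10 in liver and 10.62 ± 0.37 in embryos, a difference of 0.30 that did not pass (SE 0.161, adjusted p = 0.116). Its percentile was 95.4, 93.0, 95.8 and 96.1, high at each stage. Col1a2, the second type I chain, rose by 0.52 (SE 0.196, adjusted p = 0.0313) and had percentiles of 79.6, 77.8, 81.9 and 82.

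The large rises of Col1a1 and Col3a1, the chains of type I and type III fibrils, rest on the E8.5 reading. Col1a1 had 5.71, 6.99 and 7.36 in E12.5 liver and 1.46, 1.67 and 1.80 in E8.5 embryos, a rise of 5.15 (SE 0.243, adjusted p = 4.005e-09). Col3a1 had 6.59, 6.69 and 7.07 in liver and 1.99, 2.23 and 2.63 in embryos, a rise of 4.49 (SE 0.128, adjusted p = 6.369e-11). At E9.5 both were already at their liver rank, Col1a1 with percentiles of 8.4, 77.5, 73.3 and 79.6 and Col3a1 with 33.8, 81.2, 82.4 and 79.3. Col5a2, next to Col3a1 on chromosome 1, read 5.9, 63.1, 63.7 and 58.2.

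This pattern went with the number of probes. Among target IDs above the median at the 3 later stages, 729 of 4335 (16.8%) with 2 or more probes lay below it at E8.5, against 163 of 5064 (3.22%) with 1 probe. For collagen genes it was 5 of 11 with 2 or more probes (Col1a1, Col3a1, Col5a2, Col6a3 and Col8a1) and 0 of 7 with 1 probe. Col1a2, with 1 probe, read at the 79.6th percentile on the E8.5 arrays that put Col1a1 at the 8.4th. The usual type I molecule holds both chains, and the part of the probes in the E8.5 readings was not tested. With single-probe target IDs alone, 3 of 12 tested members were higher in liver and 3 lower.

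The genes that act on collagen were mixed between E12.5 liver and E8.5 embryo. Over all 12603 tested target IDs, 30.6% were higher and 46.8% lower. Of 7 tested fibril partners 6 were higher and 1 lower, led by the fibril-binding proteoglycan decorin (Dcn, 7.79, SE 0.118) and by tenascin C (Tnc, 3.17, SE 0.146), with fibrillin 2 (Fbn2, -1.83, SE 0.239) the one that fell. Of 6 tested genes of propeptide cleavage and crosslinking 4 were higher, such as the procollagen C-proteinase Bmp1 (5.26, SE 0.196) and lysyl oxidase (Lox, 3.99, SE 0.298), and 1 lower, Loxl1 (-1.67, SE 0.188). Of 14 tested hydroxylation and glycosylation genes 8 were lower and 4 higher. The prolyl hydroxylase subunits P4ha1 (-2.05, SE 0.0818) and P4ha2 (-1.88, SE 0.155) fell, and the lysyl hydroxylase Plod3 rose by 5.68 (SE 0.149).

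The collagen chaperone Hsp47 (Serpinh1) rose by 2.50 (SE 0.121), while the other 5 of 6 tested folding and export genes fell, among them the coat subunit Sec23a (-1.13, SE 0.154). Of 8 tested degradation and inhibitor genes 6 fell, including the gelatinase Mmp2 (-1.51, SE 0.158). The collagen-cleaving cathepsin K (Ctsk, 2.93, SE 0.132) and the metalloprotease inhibitor Timp3 (2.88, SE 0.155) rose. Of 6 tested receptors 2 rose and 3 fell, with the discoidin receptor Ddr1 at 1.73 (SE 0.174) and integrin Itgb1 at -1.93 (SE 0.153). Beside these counts, 30.6% of all tested target IDs rose and 46.8% fell.

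Of the genes named here that rose, Dcn, Tnc and Ctsk ranked below the median at E8.5, as Col1a1 did. Bmp1, Plod3, Serpinh1, Timp3, Ddr1 and Lox ranked above it. Each of these genes ranked higher in E9.5 embryos than at E8.5. In the order E8.5, E9.5 and E12.5, the percentiles were 17.9, 77.8 and 92.4 for Dcn, 30.9, 67.6 and 72.7 for Tnc, 53.8, 80.7 and 86.4 for Bmp1, and 66.3, 89.5 and 92.7 for Plod3. They were 88.1, 98.9 and 96.5 for Serpinh1, 53.7, 81.1 and 75.1 for Timp3, and 61.6, 86.5 and 72.1 for Ddr1, each highest at E9.5 among these stages. Lox (56.9, 67.5 and 81.8) and Ctsk (39.8, 56.2 and 72.7) ranked higher at E12.5 than at E9.5 by more than 10 points.

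Heterozygotes were compared with wild type within each stage. No collagen gene passed the threshold at any stage: limma called 0 of 26 tested members at E8.5, 0 of 27 at E9.5, 0 of 24 in E11.5 livers and 0 of 23 in E12.5 livers. Over all tested target IDs the called shares were 0.0238%, 0.00635%, 0% and 0% in stage order. An unadjusted p under 0.05 was reached by 1, 5, 0 and 0 members in the same order, where the shares of all target IDs were 3.77%, 11.1%, 2.63% and 3.86%. With 3 arrays a group, the smallest exact permutation p within a stage is 0.1.

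At E9.5, where the arrays of a group were closest together, the 5 genes of unadjusted p under 0.05 all had negative differences. Col12a1, a fibril-associated chain of tendon and dermis, had log2 values of 6.73, 6.78 and 6.80 in heterozygotes and 7.02, 7.004 and 6.99 in wild type, a difference of -0.23 (SE 0.0516, adjusted p = 0.168). Col2a1 had 11.08, 11.15 and 11.06 in heterozygotes and 11.44, 11.22 and 11.34 in wild type, also -0.23 (SE 0.0662, adjusted p = 0.245). In both genes the groups were separate. The gap between them was wider than the spread within either group for Col12a1 and narrower than the spread among wild types for Col2a1. Col12a1 read near the middle of the array, with a mean signal percentile of 57.2 at E9.5, against 92.1 for Col2a1.

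Col6a2 had 6.58, 6.62 and 6.63 in heterozygotes and 6.74, 6.71 and 6.80 in wild type (-0.14, SE 0.0528, adjusted p = 0.364). Its mean signal percentile at E9.5 was 51.4, also near the middle of the array. Col4a1 had 12.65, 12.54 and 12.61 in heterozygotes and 12.72, 12.71 and 12.82 in wild type (-0.15, SE 0.0578, adjusted p = 0.371). Its partner Col4a2 had -0.13 (SE 0.0730, adjusted p = 0.551). Col3a1 had 9.20, 9.24 and 9.37 in heterozygotes and 9.46, 9.58 and 9.32 in wild type (-0.18, SE 0.0770, adjusted p = 0.416), and there the groups overlapped.

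**Figure D3:**
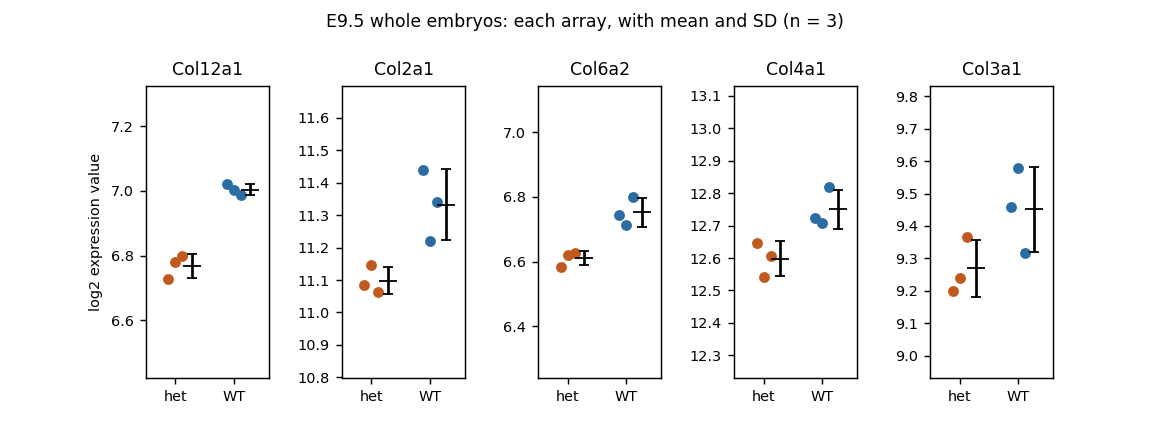
Log2 values of the 5 collagen chain genes with an unadjusted limma p under 0.05 at E9.5, 1 point per array, heterozygotes (het) left and wild type (WT) right, with mean and SD (n = 3); every vertical axis spans the same log2 range. The heterozygote points lie below the wild-type points for Col12a1, Col2a1, Col6a2 and Col4a1 and overlap them for Col3a1, and 0 of the 5 passed the adjusted threshold.

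Across the 27 members tested at E9.5, 18 had a negative difference, against 50% of all tested target IDs, and the median was -0.07 against 4.89e-05. The groups did not overlap for 4 of the 27 (14.8%), all 4 lower, against 17.6% of all target IDs in either direction and 9.27% lower. The share that separated was therefore near the background. The differences of the basement membrane and fibril partners ran the same way at E9.5, with 8 of 11 and 7 of 7 tested genes negative, and none was called. The laminin chain Lama1 had -0.26 (SE 0.0737, adjusted p = 0.250), the nidogen Nid1 -0.22 (SE 0.0648, adjusted p = 0.262) and the microfibril protein Fbn1 -0.23 (SE 0.061, adjusted p = 0.219).

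Genes that modify the chains ran the other way at E9.5. Of 14 tested hydroxylation and glycosylation genes 13 had a positive difference, with a median of 0.10. The prolyl 3-hydroxylase P3h2 had 8.96 in heterozygotes and 8.73 in wild type (0.23, SE 0.0522, adjusted p = 0.173). Among the remaining lists the smallest p values belonged to Ctsk (-0.31, SE 0.0778, adjusted p = 0.195), the cargo-coat gene Sec24d (0.17, SE 0.0569, adjusted p = 0.313) and Lox (-0.17, SE 0.0604, adjusted p = 0.326). In all 7 pathway lists 0 genes were called in any heterozygote comparison by limma.

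Markers of other cell types also differed between the E9.5 groups, with 0 called by limma. Of 5 tested parietal and visceral endoderm markers 4 were positive (median 0.75), and so were 4 of 5 hepatoblast markers (median 0.77), all 8 without overlap. Over all tested target IDs, 17.6% had no overlap in either direction and 50% had a negative difference. The mean endoderm marker level per array ran from 8.51 to 9.30 in heterozygotes and from 8.05 to 8.33 in wild type, and that of the hepatoblast markers from 9.60 to 10.22 in heterozygotes and from 9.38 to 9.47 in wild type. The endoderm gene Amn, for example, had 10.52, 9.89 and 9.38 in heterozygotes and 8.67, 8.57 and 9.05 in wild type. Of 6 cardiac and striated muscle markers 4 were positive, all 4 without overlap (median 0.20). Negative differences were found for 4 of 5 neural markers (median -0.21), whose mean level ran from 7.23 to 7.34 in heterozygotes and from 7.42 to 7.45 in wild type, and for 5 of 5 somite mesoderm markers (median -0.06), all with overlap. The part of these markers in the collagen values was not tested.

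At E8.5 Col9a1 had 3.22, 2.80 and 3.83 in heterozygotes and 4.19, 3.81 and 4.26 in wild type, a difference of -0.80 (SE 0.288, unadjusted p = 0.0299 and adjusted p = 1 by limma). Heterozygote replicate 3 and wild-type replicate 2 overlapped. With the E8.5 difference taken from the fit of all 24 arrays, which uses 1 spread per gene for all stages, Col9a1 was the 1 member called (adjusted p = 0.0324). Its SD at E8.5 was 0.52 in heterozygotes and 0.24 in wild types, against 0.03 to 0.22 in the groups of the later stages. The shared spread is therefore smaller than that of E8.5. Col9a3 had 9.05, 8.46 and 8.72 in heterozygotes and 8.42, 8.10 and 8.38 in wild type (0.44, SE 0.199), with no overlap, so that these chains of 1 heterotrimer had opposite signs. Col9a3 was the only 1 of 26 tested members whose groups were separate, against 6.98% of all target IDs in either direction and 3.96% higher.

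Col15a1, a basement membrane zone chain, had 2.27, 2.28 and 2.96 in E8.5 heterozygotes and 3.52, 3.92 and 2.36 in wild type (-0.77, SE 0.427), a difference smaller than the SD of its wild-type arrays (0.81). Negative differences were found for 18 of 26 members, against 49.6% of all target IDs, with a median of -0.11 against 0.00. One of these arrays, heterozygote replicate 1, had a mean level of 7 erythroid markers of 5.44, against 8.53 to 9.53 in the other 5. It was the lowest array for 8 of the 26 members and the highest for 3, and its part in the result was not tested.

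At E11.5 the signs were even, 12 negative and 12 positive, with 50.4% of all target IDs negative and a median of 0.00. Col5a1 had 11.45, 11.32 and 11.39 in heterozygotes and 11.60, 11.61 and 11.46 in wild type (-0.17, SE 0.0799). Col27a1, a fibrillar chain of cartilage, had 7.02, 6.89 and 6.84 in heterozygotes and 7.03, 7.07 and 7.04 in wild type (-0.13, SE 0.0768). Both, with Col25a1 (-0.07, SE 0.0706), were the 3 members of 24 whose groups did not overlap, all lower, against 8.19% of all target IDs in either direction and 4.05% lower. Col2a1 had 7.50, 7.11 and 7.29 in heterozygotes and 7.13, 7.31 and 7.07 in wild type (0.13, SE 0.113). Every adjusted p was 1. Col4a1 and Col4a2 had 0.17 (SE 0.161) and 0.12 (SE 0.138), so the pair was positive at E11.5 and negative at E9.5. Xist was 9.72 and 10.06 in E11.5 heterozygote replicates 1 and 3 and 10.06 in wild-type replicate 2, against 6.65 to 6.79 elsewhere. Col4a1 had 10.04, 10.48 and 10.27 on these Xist-high arrays, against 9.77 to 9.96 on the others. Col4a2 and Col2a1 were also highest on the Xist-high arrays, and the part of sex in the pair's difference was not tested. Heterozygote replicate 3, with a mean cardiac marker level of 10.09 against 7.45 to 8.15 in the other E11.5 livers, was the highest of the 6 for Col4a1; its part was not tested.

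At E12.5 19 of 23 tested members had a negative difference, against 49.3% of all target IDs, with a median of -0.11 against 0.00. The members of smallest p were Col5a2 with 3.02, 3.33 and 2.65 in heterozygotes and 3.199, 3.37 and 3.54 in wild type (-0.37, SE 0.195), Col9a2 (-0.41, SE 0.219) and Col14a1 (-0.35, SE 0.234), each with an adjusted p of 1.00. Col9a2 had 6.10, 6.398 and 5.74 in heterozygotes and 6.29, 6.36 and 6.82 in wild type. Col14a1 had 5.31, 5.87 and 5.78 in heterozygotes and 5.79, 6.42 and 5.79 in wild type. The groups did not overlap for 0 of 23 members, against 7.13% of all target IDs.

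One liver array was low for most members. Heterozygote replicate 1 was the lowest of the 6 arrays for 15 of the 23 members and the highest for 0, and its median deviation from the mean of the other 5 was -0.37. Col1a1 had 5.71 on that array and 7.36 and 7.12 in the other heterozygotes, with 6.64, 7.02 and 6.96 in wild type. Col6a3 had 7.32 there, 8.44 and 8.23 in the other heterozygotes, and 7.73, 8.18 and 8.19 in wild type. For both genes the other 2 heterozygotes were above the 3 wild types. Without that array 15 of 26 tested members were negative at E12.5.

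The same array was low in several mesenchymal transcripts, but not in all. The receptor Pdgfrb, a defining marker of stellate cells and pericytes, had 2.37 there, against 4.65 and 4.004 in the other heterozygotes and 3.82, 4.37 and 3.41 in wild type. Pdgfra, Acta2 and Reln were also lowest on that array, Reln by little (9.08, against 9.12 in wild-type replicate 1). Des did not follow, with 6.48 there and 6.64, 6.35 and 6.47 in wild type. The mean of 9 mesenchyme and stellate markers, of which all but Hand2 were above the array median at E12.5, was 5.55, against 6.16 and 6.13 in the other heterozygotes and 5.78 to 5.96 in wild type. It was also the single E12.5 array with Xist signal (7.90, against 1.81 to 2.19 in the other 5). With Y-linked level added as a term 11 of the 23 members were negative. The part of these features in the collagen values was not tested.

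**Figure D4:**
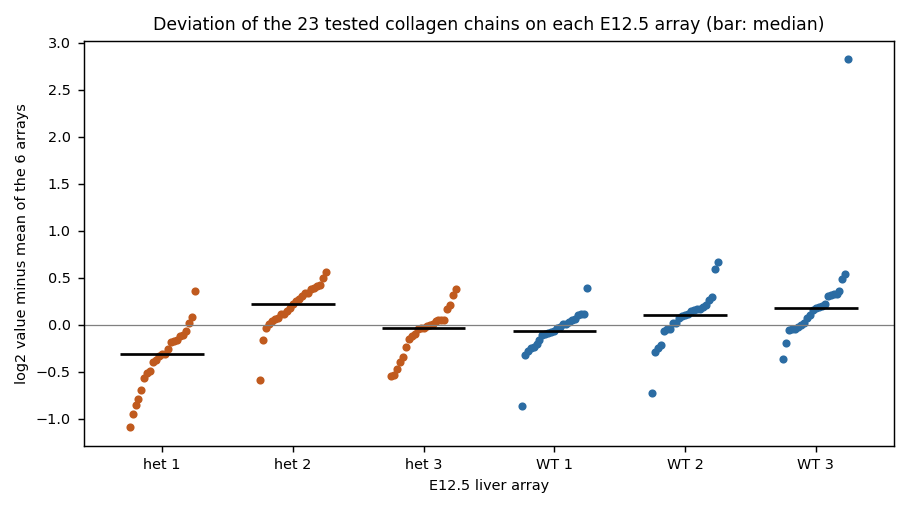
Log2 value minus the mean of the 6 arrays for each of the 23 collagen chain genes tested at E12.5 (points) on each liver array, heterozygotes (het) left and wild type (WT) right, with the median as a bar. Points of heterozygote replicate 1 lie mostly below 0, those of heterozygote replicate 2 mostly above, and the single high point of wild-type replicate 3 is Col2a1.

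Averaged over the 4 stages in a fit of all 24 arrays, 0 of 27 tested members passed the threshold, as did 0% of all 12603 target IDs, and 1 member had an unadjusted limma p under 0.05, against 5.24%. The difference was negative for 23 of 27, against 49% of all target IDs, with a median of -0.07 against 0.00. All 9 tested fibrillar chains, 3 of 4 type IV chains and 11 of 14 others were negative. Without E12.5 heterozygote replicate 1 the count was 17 of 27. Of 13 members tested at all 4 stages, Col16a1, Col5a1 and Col6a1 were negative at each, 7 members at 3, 2 at 2 and 1 at 1. Members share the same arrays within a stage, and genotype coincides with sex at E8.5, so these signs are not independent repeats. The matching share over all target IDs is not given here.

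Col9a1 had the smallest p of the average, -0.31 (SE 0.0918, unadjusted p = 0.00281 and adjusted p = 0.568). It was negative at E8.5 (-0.80), E9.5 (-0.11) and E12.5 (-0.42, where it lay below the filter) and positive at E11.5 (0.07). Without the E8.5 arrays the average was -0.15. Next were Col15a1 (-0.25, SE 0.131) and Col16a1 (-0.16, SE 0.0923). Col16a1 had 7.58, 8.41 and 8.11 in E12.5 heterozygotes and 8.27, 7.90 and 8.63 in wild type, with overlap there and at each other stage. For the type IV pair the average was close to 0, at -0.04 for Col4a1 (95% interval -0.23 to 0.16) and -0.04 for Col4a2 (-0.23 to 0.16).

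**Figure D5:**
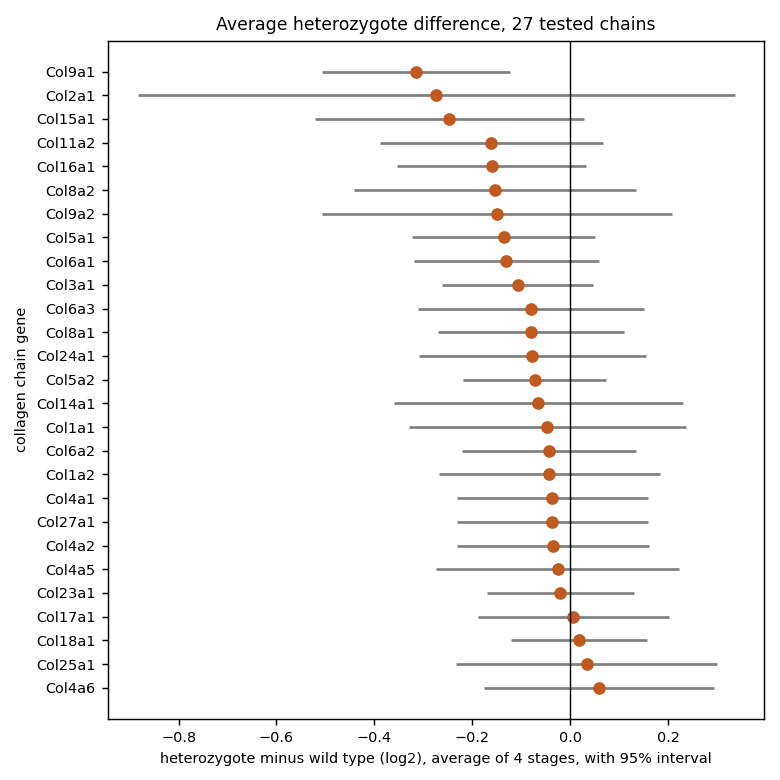
Heterozygote minus wild type averaged over the 4 stages (log2, horizontal axis, with 95% interval) for the 27 tested collagen chain genes, ordered by difference. Of the 27 points 23 lie below 0, and the interval of Col9a1 (-0.51 to -0.12) is the only one that does not reach 0 before adjustment.

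The heterozygote difference in liver minus that in embryo was tested in the same fit. Limma called 0 of 27 members, against 0.00793% of all target IDs, and 0 had an unadjusted p under 0.05, against 4.4%. Col4a6 had -0.37 (SE 0.225), Col5a2 -0.22 (SE 0.139) and Col9a1 0.28 (SE 0.184), each with an adjusted p of 0.998. Col4a6 had 4.34, 4.52 and 5.10 in E8.5 heterozygotes and 3.44, 4.48 and 4.62 in wild type, against 2.56, 2.60 and 2.15 in E12.5 heterozygotes and 2.71, 2.62 and 2.96 in wild type. Of the collagen-processing genes, Timp3 had the smallest p of the stage average, 0.32 (SE 0.0868, adjusted p = 0.511).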

How the data were processed

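The authors deposited normalized log2 expression values for each target ID; how background was corrected and which normalization and software were used is not given in the sources used here. Biotinylated cRNA was made from total RNA, per the labels' protocols. From the values, E8.5 and E12.5 arrays share 1 distribution (largest percentile gap 0.00104 on the log2 scale), and E9.5 and E11.5 have their own (gaps of 4.49 and 4.86), so only E12.5 and E8.5 were tested against each other. Of the deposited tables of other values, only the probe identifiers were read, to count probes; 48 columns of per-sample values matched no label and were not used.

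Stages were fitted one by one using limma 3.58.1 under R 4.3.3 (lmFit, eBayes, two-sided, Benjamini-Hochberg over all target IDs whose mean over the 6 arrays was above the stage median, threshold 0.05). A joint fit of 24 arrays gave the stage average and the liver minus embryo effect. The fit was tested on simulated data. Of 200 target IDs shifted by 0.5 log2, 0% were recovered in E8.5 embryos and 0% in E12.5 livers. After a shift of 1, 46.5% were recovered in E12.5 livers and 10.5% in E8.5 embryos. The matching shares were 78% and 98.5% for E9.5 embryos, then 42.5% and 92% for E11.5 livers. A count of 0 called in E8.5 embryos or E12.5 livers therefore does not exclude changes of up to 1 log2. The number of arrays limits the precision.

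Named genes were those of highest percentile per class, smallest p per heterozygote comparison, largest liver and embryo percentile difference, and the neighbours of these. Genes beyond this rule were named for context after their values were seen. Members, classes, pathway and marker lists were chosen with earlier results of these data known. Alternatives were no filter, eBayes with trend, quantile normalization, a replicate block, the joint fit, the Y-linked level, single-probe target IDs, percentiles among all target IDs, and leaving out each array or E8.5.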

Additional observations from a re-analysis of the deposited data

How the results depend on the processing

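The count of collagen genes past the threshold in the heterozygote comparisons stayed at 0 under every alternative run, with 1 exception: at E8.5 the joint fit of 24 arrays gave 1 lower, Col9a1 (adjusted p = 0.0324). That fit uses 1 spread per gene, which for Col9a1 is smaller than its spread at E8.5. In E12.5 liver minus E8.5 embryo, single-probe target IDs alone gave 3 higher and 3 lower of 12 tested, where fewer genes were tested; leaving out each array gave 9 to 12 higher and 10 to 12 lower. The effect of Col9a1 in liver minus embryo was 0.28 and reversed to -0.0682 without E8.5; the cause was not tested. Counts of negative differences were added after seeing the data. At E12.5 the count was 11 with Y-linked level as a model term, and 15 to 23 on leaving out each array, the lowest without heterozygote replicate 1. At E9.5 it was 17 to 21 and for the stage average 17 to 25, again lowest without E12.5 heterozygote replicate 1. Deviations from the group mean were correlated between same-numbered heterozygote and wild-type arrays. The correlations were 0.0971 to 0.177 at E8.5, -0.0785 to 0.0201 at E9.5, -0.393 to -0.126 at E11.5 and 0.00679 to 0.0992 at E12.5. Differently numbered arrays were not compared, so this does not settle whether the numbers pair the samples. With a replicate block 0 members were called in the heterozygote comparisons. It gave 10 higher and 10 lower in E12.5 minus E8.5, and 23 were negative in the stage average. Of the percentiles, none moved beyond the spread between arrays when ranked among all target IDs. The E8.5 and E12.5 arrays had the widest spread, with a median SE of 0.223 and 0.157, against 0.0647 at E9.5 and 0.0909 at E11.5.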
